A study of Mus musculus with 32 samples.

Results

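Low arginine was compared with full medium in CD4+ T cells that met their antigen. The comparison holds 6 of the study's 32 arrays, chosen by their titles: 3 arrays of cells given the ovalbumin (OVA) peptide in RPMI medium with arginine at 1% of its normal level, and 3 arrays of cells given OVA in medium with no amino acid lowered. All cells came from Balb/c mice carrying the DO11.10 T cell receptor transgene, whose T cells recognize the OVA peptide. The T cells were taken from axial and cervical lymph nodes and cultured on macrophages drawn from the peritoneal cavity after thioglycollate, which presented the peptide. They were stained for CD4, sorted as viable single cells after 48 h and lysed at once. The ages of the mice are not given in the labels, nor is it said whether arrays of a group came from separate mice or cultures. The p-values therefore measure only the spread between arrays, pooled over all groups in the fit, which may be technical. Other 48 h arrays serve as reference: antigen with 1% leucine or 1% lysine (3 arrays each), and 1% arginine without antigen (2 arrays). A further reference is antigen in full medium on macrophages that had been exposed to IL-4 plus IL-10 (3 arrays). Arrays of 1% leucine and of 1% lysine without antigen (3 arrays each) also enter the fit of 23 arrays and its pooled spread.

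Arginine is used for protein synthesis and is also the substrate of arginase, which makes ornithine and urea and is made in quantity by macrophages exposed to IL-4. A cell that lacks an amino acid accumulates uncharged tRNA, which activates the kinase GCN2. GCN2 slows general translation while favouring translation of the transcription factor ATF4, which turns on genes for amino acid synthesis and uptake. The kinase complex mTORC1 also reads amino acid supply, and in activated T cells it promotes glycolysis, partly through HIF-1, and sterol and fatty acid synthesis through the SREBP factors.

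Of 22180 genes tested, 1036 (4.67%) were called, meaning an adjusted p below 0.05 in limma. Of these, 334 (1.51%) were higher and 702 (3.17%) lower in low arginine. Counts of list members called in low arginine against full medium are to be read beside these shares. For 1033 of the called genes the 3 arrays of each group did not overlap, and 6116 genes (27.6%) in all had groups that did not overlap. At least a 2-fold change was seen for 70 of the genes called higher and 140 of those called lower. Higher genes were 32.2% of the calls, 27.3% with arrays centred on their medians and 48.8% after quantile normalization. The median log2 difference over all genes was 0.007. Leaving out any 1 of the 6 arrays lowered the counts, to between 195 (without full-medium replicate 2) and 220 higher and between 361 (without low-arginine replicate 2) and 491 lower. Array medians were 5.44 to 5.51 in both groups, and correlations between arrays were 0.987 to 0.99 within groups and 0.977 to 0.981 between them. The submitters numbered the arrays, and the numbers were grouped here into consecutive runs, whose meaning the labels do not give. The full-medium and low-arginine arrays lie in different runs, so run and medium cannot be told apart. The arrays on pretreated macrophages lie in the run of the full-medium arrays, and their values are given beside several of the main results for that reason.

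The sorted cells carried the markers of CD4 T cells. Cd3e, a chain of the T cell receptor complex, stood at 11.60 to 11.71 in full medium and 11.81 to 11.94 in low arginine, on the log2 scale of the deposited values. Cd4 stood at 9.64 to 9.93 and 9.93 to 10.23. Of 22 macrophage markers none was called in either direction, and their mean level was 6.74 to 6.86 over the full-medium arrays and 6.63 to 6.84 over the low-arginine arrays. Lyz2, the most abundant of the macrophage genes looked at, was present in both (10.26 to 10.65 and 9.82 to 10.31). None of 10 B cell markers was called, although their mean was 5.69 to 5.71 in full medium and 5.77 to 6.05 in low arginine. Cd79a, a chain of the B cell receptor, stood at 5.69 to 6.11 and 6.45 to 7.24 (0.81 ± 0.28, adjusted p = 0.109). The part of B cells in the results was not tested. In sorted populations, fewer cells of a type and less RNA per cell cannot be told apart.

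**Figure D1:**
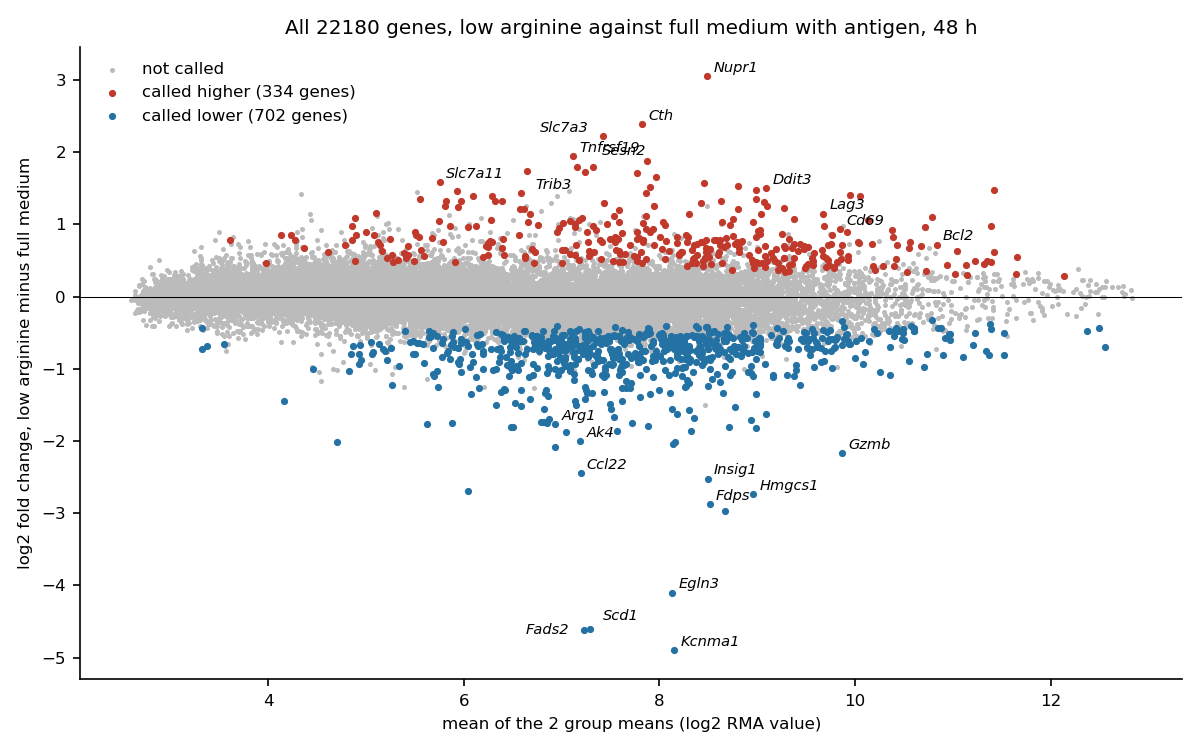
Log2 fold change of every gene, low arginine minus full medium, against the mean of both group means (log2 values), 3 arrays per group. Called genes are coloured, 334 higher and 702 lower. Nupr1 lies highest at 3.06 and Kcnma1 lowest at -4.90.

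Regulators of the amino acid response were the leading group among the rises. Of 18 measured regulators and feedback genes of the ATF4 pathway, 11 rose and none fell, with a median log2 change of 0.98. Nupr1, a small stress-induced chromatin protein, stood at 6.72, 7.26 and 6.90 in full medium and at 10.26, 9.95 and 9.85 in low arginine. It was the largest rise of all, 3.06 ± 0.18 (n = 3, SE from the spread pooled over all groups in the fit), or 8.33-fold (limma adjusted p = 1.65e-10). Trib3, a pseudokinase that restrains ATF4, stood at 6.49, 6.33 and 6.33 and at 7.90, 8.07 and 8.33, and rose by 1.72 ± 0.22. Ddit3, the stress factor CHOP, stood at 8.10, 8.30 and 8.62 and at 9.89, 9.90 and 9.73, and rose by 1.5 ± 0.17. Sesn2, an inhibitor of mTORC1, was the most scattered in full medium (5.8, 7.03 and 6.46, against 8.11, 8.15 and 8.39) and rose by 1.79 ± 0.25. For all 4 genes the groups did not overlap. Cebpg and Jdp2, bZIP partners of the C/EBP and ATF families, rose by 1.35 ± 0.16 and 1.32 ± 0.17. Chac1, which breaks down glutathione, rose by 0.92 ± 0.15. Atf3, Atf5, Cebpb and Herpud1 were the other members called higher. The transcript of Atf4 itself was not called (0.34 ± 0.14, adjusted p = 0.204), with 10.54, 10.62 and 10.69 in full medium and 10.84, 10.93 and 11.10 in low arginine.

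Several of these genes share a promoter sequence. RefSeq promoters (GRCm38.p6, 250 bases before to 50 after a start) were found for 20 of the 25 genes called higher among the ATF4 regulators, amino acid enzymes, transporters and tRNA synthetases. Of the 20, 10 hold TGATGNAA, a C/EBP-ATF element, on either strand, against 4.51% of 27025 genes with a promoter in the table. The genes were picked by their membership of these lists as well as by their change, so the share is a description. The 250 bases before the start are shown for 3 of them with the element in capitals: Nupr1 at chr7:126625471-126625720 (minus strand), where it begins 110 bases before the start, Asns at chr6:7693210-7693459 (minus strand), where it begins 23 bases before it, and Slc7a11 at chr3:50443614-50443863 (minus strand), which has 2 copies.
Nupr1: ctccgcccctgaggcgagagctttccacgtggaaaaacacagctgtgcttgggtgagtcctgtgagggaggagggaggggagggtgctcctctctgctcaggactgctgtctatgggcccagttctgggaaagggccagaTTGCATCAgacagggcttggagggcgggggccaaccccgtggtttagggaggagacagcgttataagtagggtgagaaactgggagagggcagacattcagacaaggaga
Asns: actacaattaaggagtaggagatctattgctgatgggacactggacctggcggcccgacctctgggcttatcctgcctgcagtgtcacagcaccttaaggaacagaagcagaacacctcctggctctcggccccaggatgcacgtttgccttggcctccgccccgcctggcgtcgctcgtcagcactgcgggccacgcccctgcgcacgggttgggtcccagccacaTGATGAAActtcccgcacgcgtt
Slc7a11: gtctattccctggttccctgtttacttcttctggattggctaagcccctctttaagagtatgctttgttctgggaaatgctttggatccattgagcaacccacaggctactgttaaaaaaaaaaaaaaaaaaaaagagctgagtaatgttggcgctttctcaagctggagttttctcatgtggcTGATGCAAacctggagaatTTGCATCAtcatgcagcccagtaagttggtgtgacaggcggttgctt
The copy in Nupr1 and the second in Slc7a11 read TTGCATCA, the element on the opposite strand. The other 7 genes with a match were Atf3, Chac1, Herpud1, Jdp2, Slc1a4, Trib3 and Yars.

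Enzymes that make amino acids changed in part. Of 19 measured, 5 rose and 2 fell (median 0.34). Cth, which makes cysteine from cystathionine, stood at 6.45, 6.83 and 6.60 in full medium and 8.95, 8.84 and 9.26 in low arginine, a rise of 2.39 ± 0.28 or 5.24-fold (adjusted p = 1.26e-05). Asns, asparagine synthetase, stood at 9.04, 9.35 and 9.20 and at 10.05, 10.21 and 10.26, and rose by 0.98 ± 0.22 (adjusted p = 0.0109). Aldh1l2 and Gpt2, enzymes of mitochondrial folate and of alanine metabolism, rose by 0.89 ± 0.18 and 0.86 ± 0.19. Mthfd2 also rose. The calls of Asns and Gpt2 were lost without full-medium replicate 1 (adjusted p = 0.0598 and 0.0555), which left 3 enzymes called higher. The cytosolic folate enzymes went the other way: Shmt1 fell by 0.89 ± 0.19, and Mthfd1 was the other member called lower.

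Some carriers of amino acids were called higher, and most were not called. Of 13 genes of cationic amino acid transport, 3 rose and 1 fell (median -0.04). Slc7a3, a cationic carrier that takes up arginine, stood at 6.12, 6.48 and 6.33 in full medium and at 8.43, 8.50 and 8.67 in low arginine, a 4.67-fold rise (2.22 ± 0.16, adjusted p = 8e-09). Slc7a1, the widely expressed carrier of the same family, rose by 0.66 ± 0.14. It stood at 8.85 to 8.88 in full medium and 9.31 to 9.76 in low arginine, and its call was lost without low-arginine replicate 3 (adjusted p = 0.0508). Slc3a2, the heavy chain shared by several carriers, rose by 1.06 ± 0.13. The member called lower was Slc25a15, the mitochondrial ornithine carrier (-0.74 ± 0.20), and its call was lost without any 1 of the 6 arrays (adjusted p up to 0.128). Of 16 neutral and acidic carriers, 5 rose and 1 fell (median 0.09). Slc7a11, the cystine-glutamate exchanger, stood at 4.82, 5.14 and 4.92 and at 6.43, 6.75 and 6.48, a 3.01-fold rise (1.59 ± 0.18, adjusted p = 9.54e-06). Slc1a4, Slc7a5 and Slc38a2 rose by 1.06 ± 0.19, 0.96 ± 0.19 and 0.90 ± 0.14, and Slc1a5 was also called. Slc6a6, the taurine carrier, was the member called lower (-0.58 ± 0.14, adjusted p = 0.0203), a call lost without any 1 of 4 arrays (adjusted p up to 0.137).

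Of 18 tRNA synthetases, 1 rose and 2 fell (median 0.19), beside 1.51% and 3.17% of all genes. Hars, for histidine, fell by 0.76 ± 0.17, and Kars, for lysine, by 0.59 ± 0.13, the latter not called without low-arginine replicate 1 (adjusted p = 0.057). Yars, for tyrosine, rose by 0.62 ± 0.15, a call lost without any 1 of 3 arrays (adjusted p up to 0.0784). Among 22 regulators of mTORC1 and GCN2, Sesn3, a relative of Sesn2, rose by 0.71 ± 0.14. Castor1, the arginine sensor that acts on mTORC1, was lower by 0.78 ± 0.21 (adjusted p = 0.03), and its call was lost without any 1 of 4 arrays (adjusted p up to 0.148) and after quantile normalization.

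On macrophages pretreated with IL-4 and IL-10 in full medium, 12 of the 18 ATF4 regulators were called higher than on untreated macrophages (median 0.99). Over all genes, 2.71% were called higher and 5.93% lower there, with a median of 0.008. The low-arginine and pretreated comparisons share the full-medium arrays. Nupr1 differed from full medium by 2.15 there, Cth by 2.44, Slc7a3 by 1.83 and Slc7a11 by 1.22. Low leucine and low lysine gave 9 and 8 of 18 called higher than in full medium (medians 0.59 and 0.48). Over all genes, 1.15% were called higher and 1.56% lower in low leucine (median 0.002), and 2.49% higher and 6.24% lower in low lysine (median 0.024). Without antigen, Nupr1 stood at 6.96 and 7.04 in low arginine, within the range of the full-medium arrays with antigen.

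**Figure D2:**
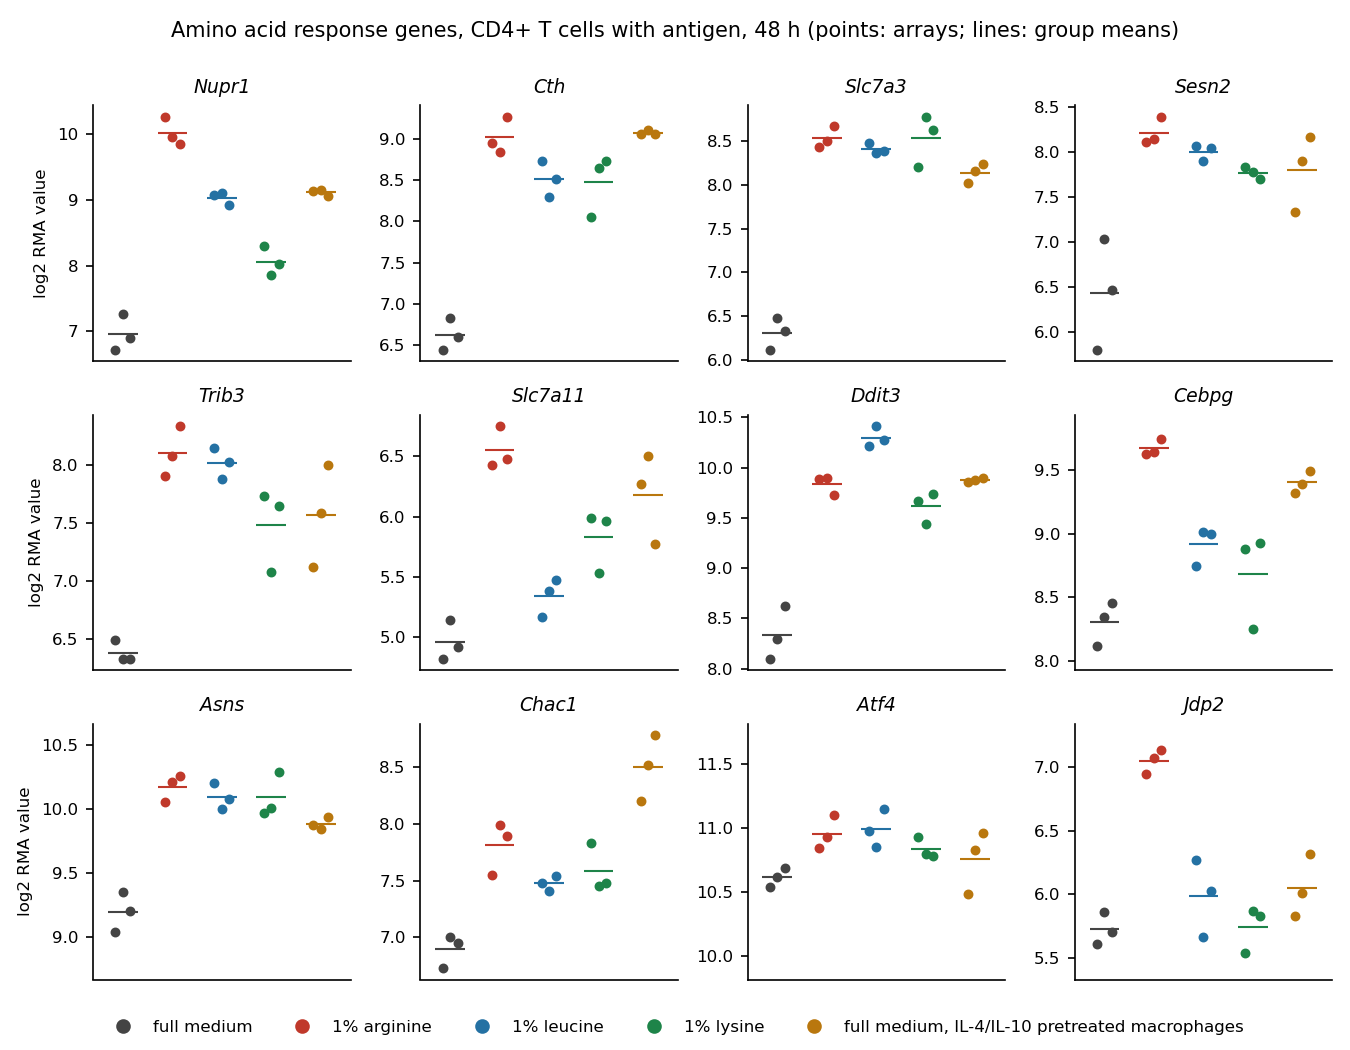
Log2 values of 12 amino acid response genes in each array (points) with group means (lines) for antigen in full medium, 1% arginine, 1% leucine, 1% lysine, and full medium on pretreated macrophages. Every 1% arginine array of Nupr1 (9.85 to 10.26) and of Jdp2 (6.94 to 7.13) lies above all arrays of the other groups.

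Genes that make or use arginine were called lower or not called. Of 19 measured genes of arginine and polyamine metabolism, none was called higher and 5 were called lower (median -0.22). Without low-arginine replicate 1 or 2 or full-medium replicate 1, 3 were called lower. Arg1, arginase 1, stood at 8.19, 7.84 and 7.41 in full medium and at 6.24, 6.10 and 5.83 in low arginine, and fell by 1.76 ± 0.24 (3.38-fold, adjusted p = 8.14e-05). Arg1 is also a marker of alternatively activated macrophages, and it stood at 9.21 to 10.29 in cells sorted from pretreated macrophages, where 8 of 22 macrophage markers were called higher. The macrophage contribution to Arg1 in low arginine was not tested. Asl, which releases arginine from argininosuccinate, stood at 6.76 to 7.01 and 5.96 to 6.05 and fell by 0.84 ± 0.16. Gatm, which uses arginine to make a creatine precursor, fell by 1.1 ± 0.19. Srm, spermidine synthase, fell by 0.67 ± 0.15, and Dhps, which modifies eIF5A with spermidine, by 0.59 ± 0.16. The call of Srm was lost without any 1 of 3 arrays (adjusted p up to 0.0676) and that of Dhps without any 1 of the 6 (adjusted p up to 0.138). Arg2, Ass1 and Odc1 were not called (0.13 ± 0.18, -0.22 ± 0.20 and -0.51 ± 0.21).

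Sterol synthesis genes fell as a group. Of 18 measured enzymes of cholesterol synthesis, 15 fell and none rose, with a median of -1.57, and their mean level was 8.43 to 8.69 over the full-medium arrays and 7.10 to 7.19 over the low-arginine arrays. Hmgcs1, which makes HMG-CoA at the head of the pathway, stood at 10.12, 10.44 and 10.42 in full medium and at 7.61, 7.66 and 7.51 in low arginine, a 6.65-fold fall (-2.73 ± 0.16, adjusted p = 1.65e-10). Fdps, which makes farnesyl diphosphate, stood at 9.74, 10.08 and 10.03 and at 6.77, 7.14 and 7.34, a 7.3-fold fall (-2.87 ± 0.22). Lss and Cyp51, which close the sterol rings and demethylate the product, differed by -2.08 ± 0.16 and -2.04 ± 0.15, and Pmvk, a mevalonate pathway kinase, by -1.86 ± 0.23. Of 15 sterol sensing and uptake genes, 6 fell. Insig1, which holds the SREBP complex in the endoplasmic reticulum and is itself an SREBP target, fell by 2.52 ± 0.16 (9.67, 9.70 and 9.90 against 7.18, 7.12 and 7.41). Tmem97 and Stard4, of sterol transport, differed by -1.86 ± 0.21 and -1.67 ± 0.21. The transcripts of both SREBP factors fell, Srebf2 by 1.12 ± 0.20 and Srebf1 by 0.85 ± 0.14.

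Fatty acid synthesis and desaturation followed, with 10 of 18 genes lower and none higher (median -0.53). The desaturase Fads2 stood at 9.45, 9.74 and 9.43 in full medium and at 4.92, 4.83 and 5.02 in low arginine, a 24.5-fold fall (-4.62 ± 0.21, adjusted p = 2.61e-12). Scd1, which makes monounsaturated fatty acids, stood at 9.23, 9.73 and 9.82 and at 5.37, 4.61 and 5.02, a 24.2-fold fall (-4.60 ± 0.29). Slc25a1, the mitochondrial citrate carrier, Fasn, fatty acid synthase, and Acaca, acetyl-CoA carboxylase, fell by 1.57 ± 0.16, 1.53 ± 0.15 and 1.42 ± 0.16. In the full-medium run, pretreated macrophages gave 17 of 18 cholesterol enzymes and 9 of 18 fatty acid genes called lower (medians -1.56 and -0.56, beside 5.93% of all genes called lower), with Fads2 at 4.22 to 4.99 and Hmgcs1 at 7.46 to 7.85. Low leucine and low lysine gave 15 and 16 cholesterol enzymes called lower (medians -1.30 and -1.29), beside 1.56% and 6.24% of all genes. In low arginine without antigen, the mean of the cholesterol enzymes was 6.75 and 6.79.

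Of 31 sterol and fatty acid genes called lower, 25 had a RefSeq promoter. CCAAT, the NF-Y box, was found on either strand in 21 of them (84.0%), against 41.1% of the 27025 genes with a RefSeq promoter. That set is not limited to genes expressed in these cells. The 31 genes were picked from the sterol and fatty acid lists and by their change, so the shares are a description. The sterol element TCACNCCAC was found in 1 gene, against 1.44%. That gene was Hmgcs1, shown at chr13:119690101-119690350 (plus strand) with the sterol element in capitals, beginning 137 bases before the start.
Hmgcs1: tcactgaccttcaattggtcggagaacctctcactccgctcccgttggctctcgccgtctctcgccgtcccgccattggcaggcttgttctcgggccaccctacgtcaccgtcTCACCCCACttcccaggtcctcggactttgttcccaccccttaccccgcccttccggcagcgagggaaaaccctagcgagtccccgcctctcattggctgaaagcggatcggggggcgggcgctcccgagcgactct
None of the 25 held TGATGNAA.

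Glycolysis genes and HIF-1 targets were lower too. Of 18 genes of glucose uptake, glycolysis and lactate export, 12 fell and none rose (median -0.78). Slc2a3, a high-affinity glucose carrier, stood at 8.54, 8.93 and 8.89 in full medium and at 7.12, 6.82 and 7.03 in low arginine, and fell by 1.79 ± 0.32. Slc2a1, the main glucose carrier of activated T cells, fell by 0.99 ± 0.17 (10.18 to 10.33 against 9.23 to 9.34). Hk2, which traps glucose as its phosphate, fell by 1.29 ± 0.20, with 8.61, 8.59 and 8.73 against 7.25, 7.44 and 7.38. Pfkl, a phosphofructokinase, fell by 1.25 ± 0.18, and Slc16a3, a lactate exporter, by 1.25 ± 0.31, the latter a call lost without any 1 of 4 arrays (adjusted p up to 0.102). Aldoc, Tpi1, Gapdh, Pgk1, Pgam1, Pkm and Pfkfb3 were the other members called lower.

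Of 20 HIF-1 targets, 7 fell and none rose (median -0.46), while Hif1a itself stood at 10.64 to 10.90 and 10.71 to 10.93 (0.08 ± 0.11, adjusted p = 0.815, and -0.02 with the mean of its probe sets). Egln3, a prolyl hydroxylase that marks HIF for destruction and is induced by it, stood at 9.97, 10.26 and 10.29 in full medium and at 5.96, 6.0 and 6.26 in low arginine, a 17.2-fold fall (-4.10 ± 0.33, adjusted p = 4.07e-08). Ak4, a mitochondrial adenylate kinase, stood at 8.30, 7.95 and 8.33 and at 6.26, 6.04 and 6.28 and fell by 2.00 ± 0.28. Bnip3, a mitophagy receptor, stood at 8.03, 7.98 and 7.95 and at 6.0, 6.06 and 6.27 and fell by 1.88 ± 0.25. Pdk1, which keeps pyruvate out of mitochondria, and Car12, a carbonic anhydrase, fell by 1.07 ± 0.18 and 1.00 ± 0.18.

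On pretreated macrophages in full medium, 1 of the 18 glycolysis genes and none of the 20 HIF-1 targets were called lower, and 5 HIF-1 targets were called higher (medians -0.36 and 0.28). Egln3 stood at 9.04, 8.98 and 10.05 there, Ak4 at 7.75, 7.78 and 8.39, and Bnip3 at 8.26, 8.06 and 8.70. Those arrays overlap full medium for Egln3 and Ak4, lie above it for Bnip3, and lie above every low-arginine array for all 3 genes. Low leucine gave 2 glycolysis genes and 2 HIF-1 targets called lower (medians -0.41 and -0.21), beside 1.56% of all genes. Low lysine gave 11 and 7 (medians -0.67 and -0.34), beside 6.24% of all genes, and 1 HIF-1 target called higher. Directly against low leucine, 1 of the 18 glycolysis genes and 2 of the 20 HIF-1 targets were called lower in low arginine. Over all genes the share called lower in that contrast was 0.478%. In low arginine without antigen, Egln3 stood at 5.5 and 5.49.

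Of the 19 genes called lower in either list, 17 had a RefSeq promoter, and 13 of these (76.5%) hold ACGTG, the core of the hypoxia response element, on either strand. The share over the 27025 genes with a RefSeq promoter, a set not limited to genes expressed in these cells, was 21.8%. The genes were picked from lists of glycolysis genes and HIF-1 targets and by their change, so the share is a description. The part of HIF-1 in the falls was not tested. The longer E box CACGTG contains these letters and was present in 3 of the 17 (17.6%, against 8.09%). The 250 bases before the start are shown with ACGTG in capitals for the largest fall, Egln3, at chr12:54203875-54204124 (minus strand), and for Ak4 at chr4:101419453-101419702 (plus strand), where both strands match within an E box.
Egln3: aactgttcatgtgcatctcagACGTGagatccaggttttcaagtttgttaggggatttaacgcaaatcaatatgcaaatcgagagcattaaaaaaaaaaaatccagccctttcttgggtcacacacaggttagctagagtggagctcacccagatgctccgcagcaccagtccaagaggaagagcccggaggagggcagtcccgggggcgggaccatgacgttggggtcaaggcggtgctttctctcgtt
Ak4: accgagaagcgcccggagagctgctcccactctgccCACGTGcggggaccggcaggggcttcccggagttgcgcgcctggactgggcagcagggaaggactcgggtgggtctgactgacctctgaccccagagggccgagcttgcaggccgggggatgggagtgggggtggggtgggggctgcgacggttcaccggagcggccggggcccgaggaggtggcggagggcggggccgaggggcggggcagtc
The match in Egln3 begins 229 bases before the start, and those in Ak4 begin 214 and 213 bases before it.

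**Figure D3:**
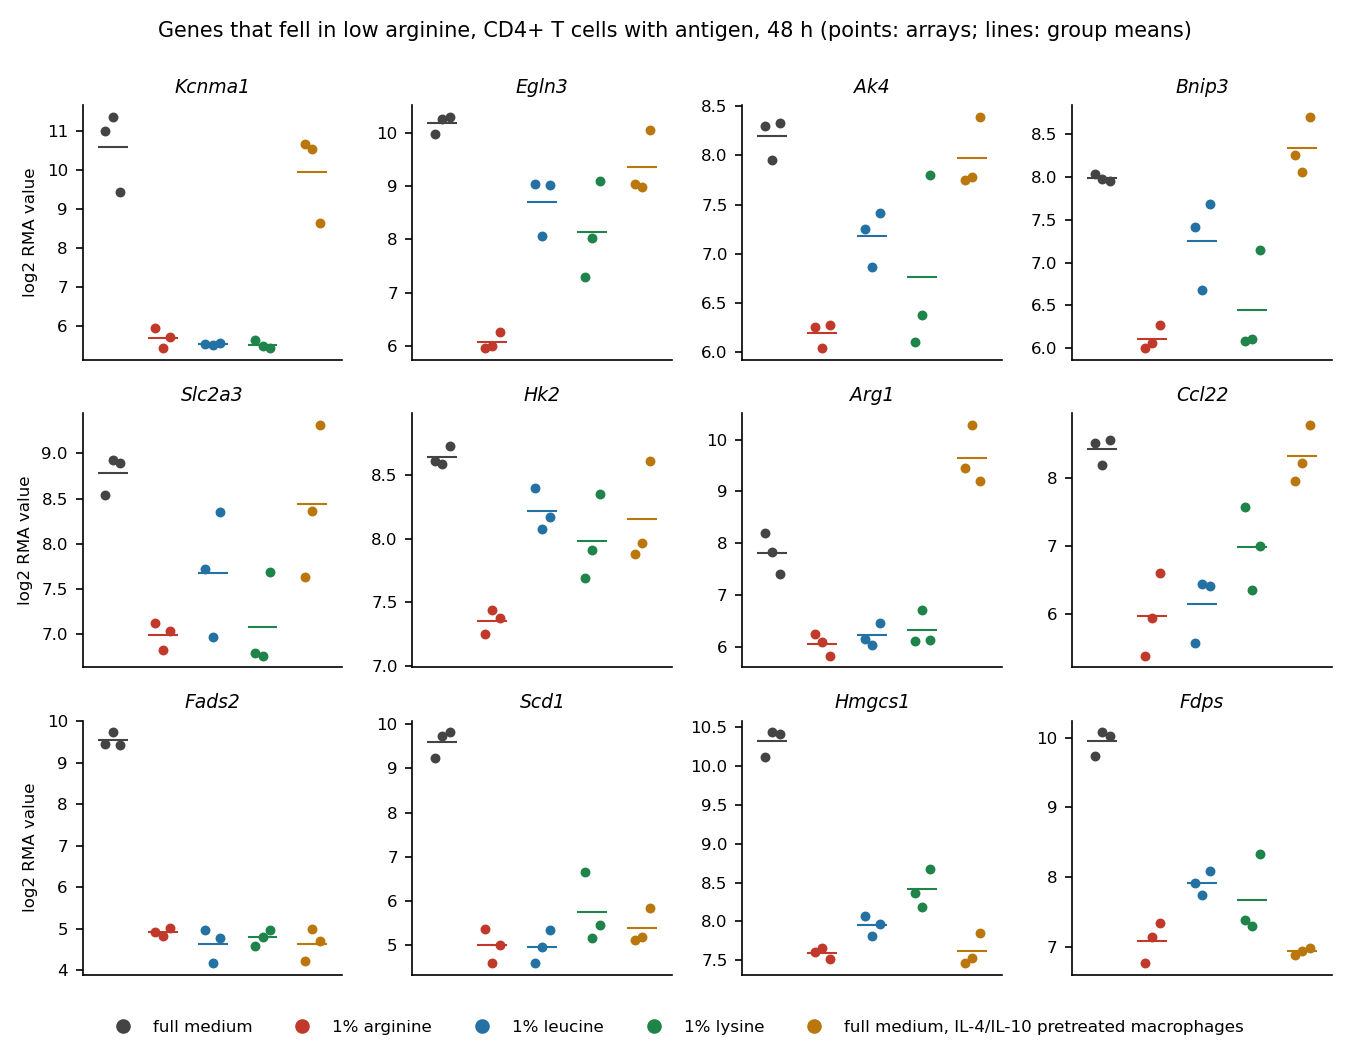
Log2 values of 12 genes lower in low arginine, in each array (points) with group means (lines), for antigen in full medium, 1% arginine, 1% leucine, 1% lysine, and full medium on pretreated macrophages. Fads2 is low in all 4 altered conditions, Kcnma1 in the 3 low media but not on pretreated macrophages, and Egln3 lowest in 1% arginine (5.96 to 6.26).

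The largest fall was outside these lists. Kcnma1, a calcium-activated potassium channel, stood at 11.01, 11.36 and 9.44 in full medium and at 5.95, 5.43 and 5.72 in low arginine, a 29.9-fold fall (-4.90 ± 0.41, adjusted p = 5.55e-08). On pretreated macrophages it stood at 10.68, 10.54 and 8.63. In low leucine it stood at 5.5 to 5.56, in low lysine at 5.44 to 5.63, and in low arginine without antigen at 5.91 and 6.16. The full-medium and pretreated arrays, which share a run, were high and the low-medium arrays given here low, and run and medium cannot be told apart for this gene. Ccl22, a chemokine of activated T cells and of macrophages, stood at 8.51, 8.18 and 8.56 and at 5.38, 5.93 and 6.59 (-2.45 ± 0.31, adjusted p = 3.3e-05). It stood at 7.95 to 8.78 on pretreated macrophages. Stra6, a vitamin A receptor, fell by 2.01 ± 0.21 (9.48, 9.22 and 8.78 against 7.24, 7.08 and 7.14). Klk1, a kallikrein, was lower by 2.02 ± 0.45, a call lost without full-medium replicate 3 (adjusted p = 0.0732), the array with the highest value.

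Other large rises were in genes that are not on the lists of the amino acid response. Tnfrsf19, a receptor of the TNF receptor family, rose by 1.95 ± 0.17 (6.45, 5.90 and 6.07 against 8.20, 8.00 and 8.06). Cox6a2, the muscle form of a cytochrome oxidase subunit, rose by 1.88 ± 0.22, and Niban1, a stress-induced protein, by 1.66 ± 0.15. Glce, an enzyme of heparan sulphate synthesis, rose by 1.58 ± 0.16, and Prrg4, a membrane Gla protein, by 1.52 ± 0.14. Pla2g10os, an antisense gene, was higher by 1.53 ± 0.32, a call lost without low-arginine replicate 1 or full-medium replicate 3 (adjusted p up to 0.0599). Serpinb2 was higher by 1.47 ± 0.42 (adjusted p = 0.0455) with 5.62 in low-arginine replicate 1 beside 7.09 and 7.31, and its call was lost without any 1 of 5 arrays (adjusted p up to 0.212).

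Among other anabolic groups the calls were lower and fewer. Of 26 ribosome biogenesis genes, 7 fell (median -0.27), with 3 called without low-arginine replicate 2 or full-medium replicate 3, 4 without low-arginine replicate 1 or 3 or full-medium replicate 2, and 5 without full-medium replicate 1. Mybbp1a, Bop1 and Nop2, nucleolar factors, fell by 0.77 ± 0.12, 0.73 ± 0.13 and 0.72 ± 0.16. Of 18 purine and pyrimidine synthesis genes, 6 fell (median -0.42), with 2 called without full-medium replicate 2, 3 without low-arginine replicate 2, and 4 or 5 without any other array. For all 18 the groups of arrays did not overlap, beside 27.6% of all genes, a set not limited to genes expressed in these cells. Cad, which starts pyrimidine synthesis, stood at 8.32 to 8.49 and 7.35 to 7.69 and fell by 0.88 ± 0.17. Gart, of purine synthesis, was lower by 0.96 ± 0.20, a call lost without full-medium replicate 2 (adjusted p = 0.0559). Of 29 respiratory chain and ATP synthase genes, 5 were called lower (median -0.30), and 3 without any 1 of the 6 arrays. Cox6b1 and Ndufa4, subunits of the respiratory chain, differed by -0.85 ± 0.14 and -0.81 ± 0.14. Rpl3 was the only 1 of 25 cytosolic ribosomal proteins called (-0.57 ± 0.14), but its difference was 0.18 with the mean of its probe sets. On pretreated macrophages, 9 of the 26 ribosome biogenesis genes and 12 of the 18 purine and pyrimidine genes were called lower than in full medium. Of the 29 respiratory chain and ATP synthase genes, 17 were called lower there, beside 5.93% of all genes.

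The unfolded protein response was split. Of 20 genes, 9 were called lower and 3 higher (median -0.46). Without low-arginine replicate 2, 4 were lower, without low-arginine replicate 1 or full-medium replicate 1 or 2, 5 were, and without the others, 6 were. Without full-medium replicate 3, 2 were higher, and without any other array, 1 was. Those lower were chaperones and folding enzymes of the endoplasmic reticulum and their helpers: Sdf2l1 fell by 1.24 ± 0.14, Calr, calreticulin, by 0.66 ± 0.13, and Manf by 0.65 ± 0.13. Pdia6 was lower by 0.93 ± 0.23, a call lost without any 1 of 4 arrays (adjusted p up to 0.0919), and Hspa5, Hsp90b1, Canx, Hyou1 and Sec61b were the others. Sel1l, of the degradation complex, rose by 0.83 ± 0.16 (7.53 to 7.95 against 8.59 to 8.63), and the sensors Atf6 and Ern1 were called higher. Of 27 proteasome genes, 4 were called lower (1 without low-arginine replicate 1 or full-medium replicate 3, 3 without full-medium replicate 1, and 2 without any other array). Psmd1 fell by 1.04 ± 0.16, while Nfe2l1, the transcription factor that drives proteasome genes, rose by 0.78 ± 0.13. On pretreated macrophages, 11 of the 20 unfolded protein response genes were called lower than in full medium and 3 higher. Of the 27 proteasome genes, 9 were called lower there and 1 higher. Over all genes, 5.93% were called lower there and 2.71% higher.

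Few genes of division were called against full medium, and their median differences were small. Of 30 mitotic genes, 1 was called lower (median -0.19), and their mean level was 8.89 to 9.0 in full medium and 8.69 to 8.88 in low arginine, with no overlap. Cenpa, the centromeric histone, was that gene (-0.99 ± 0.19). On pretreated macrophages the mean was 6.58 to 7.98, and in low lysine 6.07 to 8.16, where 29 and 30 of the 30 genes were called lower than in full medium, beside 5.93% and 6.24% of all genes. Cdk1, the mitotic kinase, stood at 9.74 to 9.88 and 9.21 to 9.39, with no overlap (-0.49 ± 0.44, adjusted p = 0.671). Its SE and p-value, like the calls of the mitotic genes, use the spread pooled over all groups in the fit. Those groups include pretreated macrophages and low lysine, so the p-value does not show that Cdk1 was unchanged. Of 33 genes of S phase entry and replication, 2 were called lower (median -0.04), Chaf1b and Fen1, and neither without low-arginine replicate 1 or 2 or full-medium replicate 1. Cdkn1b, the inhibitor p27, was higher by 0.78 ± 0.17, a call lost without full-medium replicate 3 (adjusted p = 0.0526). Myc was not called (-0.25 ± 0.11).

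Of 19 p53 targets, 5 were called higher and none lower (median 0.33), with 2 called without low-arginine replicate 1 and 3 without low-arginine replicate 3 or full-medium replicate 1. Trp53inp1, a stress-induced regulator of cell death and autophagy, stood at 8.08, 8.41 and 8.26 and at 9.89, 9.66 and 9.65 and rose by 1.48 ± 0.13. Sesn2, counted above, was another. Of 15 BCL2 family genes, 2 rose, and they act in opposite ways. Bcl2, which protects cells from death, stood at 10.35 to 10.60 and 11.19 to 11.20 and rose by 0.72 ± 0.12. Bcl2l11, which encodes the death-promoting protein BIM, stood at 6.97 to 7.37 and 7.73 to 8.12 and rose by 0.82 ± 0.14.

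Genes of T cell activation were mostly at the level of full medium. Of 23 activation genes, 3 were called higher and 1 lower (median 0.06). Cd69, an early activation marker that holds cells in the tissue, rose by 0.93 ± 0.13 (9.30 to 9.46 against 10.24 to 10.42), and Irf4, a factor induced by receptor signalling, by 0.73 ± 0.13. Il2ra, the alpha chain of the IL-2 receptor, stood at 11.19 to 11.38 and 11.37 to 11.44 (0.13 ± 0.13, adjusted p = 0.733). Klf2, a factor of resting T cells, was not called either (0.49 ± 0.19). Sla, an adaptor that dampens receptor signalling, rose by 1.39 ± 0.18, and Themis, a signalling protein of developing T cells, was lower by 0.86 ± 0.19, a call lost without full-medium replicate 3 (adjusted p = 0.0625). Of 12 CD4 T cell identity genes, 3 were called higher and 1 lower (median 0.27). For all 12 the groups did not overlap, beside 27.6% of all genes, a set not limited to genes expressed in these cells. Cd3d rose by 0.44 ± 0.09 and Thy1 fell by 0.60 ± 0.12. The calls of Cd5 and Cd28 were lost without any 1 of the 6 arrays (adjusted p up to 0.163 and 0.106).

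Inhibitory receptors and TNF family members rose in part. Of 19 inhibitory receptor and anergy genes, 4 were called higher and none lower (median 0.10). Low leucine, low lysine and pretreated macrophages gave 6, 5 and 2 called higher than full medium, beside 1.15%, 2.49% and 2.71% of all genes. On pretreated macrophages 1 was called lower. Lag3, a receptor for MHC class II, stood at 8.76, 9.32 and 9.21 in full medium and at 10.14, 10.22 and 10.39 in low arginine, a 2.22-fold rise (1.15 ± 0.20, adjusted p = 0.000918). Btla rose by 0.80 ± 0.15. Tigit was higher by 1.44 ± 0.33, with 6.44, 7.31 and 7.67 against 8.63, 8.44 and 8.66, and its call was lost without full-medium replicate 1 (adjusted p = 0.0895), where 2 of the 19 were called. Cblb, a ubiquitin ligase of anergic cells, was higher by 0.49 ± 0.12, a call lost without any 1 of 4 arrays (adjusted p up to 0.13). Pdcd1, Ctla4 and Havcr2, named although the rule did not choose them, were not called (-0.45 ± 0.21, 0.18 ± 0.23 and 0.00 ± 0.17). Of 20 TNF ligands and receptors, 4 rose. In low leucine, low lysine and on pretreated macrophages, 4, 4 and 6 were called higher than in full medium. There 1, 2 and 1 were called lower, beside 1.56%, 6.24% and 5.93% of all genes. Tnfsf8, the CD30 ligand, rose by 1.41 ± 0.15 (9.11 to 9.43 against 10.54 to 10.74) and Tnfsf4, the OX40 ligand, by 1.30 ± 0.26 (6.67 to 6.94 against 7.86 to 8.49).

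Of 16 cytotoxic granule genes, 2 were called lower and none higher, with a median of 0.08. Gzmb, granzyme B, stood at 10.47, 11.14 and 11.25 and at 8.41, 8.99 and 8.94, a 4.51-fold fall (-2.17 ± 0.46, adjusted p = 0.00599). Serpinb6b, a protease inhibitor and the other member called, fell by 1.73 ± 0.32. Eomes, a T-box factor of cytotoxic and memory cells, stood at 7.12 to 7.58 and 5.85 to 6.12 and fell by 1.42 ± 0.19. Cd8a stood at 6.26 to 6.61 and 5.67 to 5.69 (-0.80 ± 0.18), and its call was lost without full-medium replicate 1 or 2 (adjusted p up to 0.0645) and after quantile normalization. With Eomes it made 2 of 9 markers of CD8 T and NK cells, and the part of those cells in the falls of Gzmb and Eomes was not tested. Of 26 cytokine and chemokine genes, 3 were called lower and 2 higher (median -0.05). Ifng, interferon gamma, stood at 6.43, 6.64 and 7.22 and at 4.81, 5.10 and 5.11 (-1.75 ± 0.38), and Il13, a type 2 cytokine, at 8.88, 8.36 and 8.26 and at 6.92, 6.96 and 7.44 (-1.39 ± 0.30). The call of Ifng was lost without full-medium replicate 3 (adjusted p = 0.053) and that of Il13 without full-medium replicate 1 (adjusted p = 0.0558), and 1 of the 26 was called lower in either case. The calls of Lta (-0.70 ± 0.20), Il10 (0.85 ± 0.22) and Il17a (1.79 ± 0.49) were each lost without any 1 of at least 4 arrays (adjusted p up to 0.237). Il17a stood at 6.91, 6.33 and 5.53 and at 6.72, 8.68 and 8.74, so its groups overlapped.

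**Figure D4:**
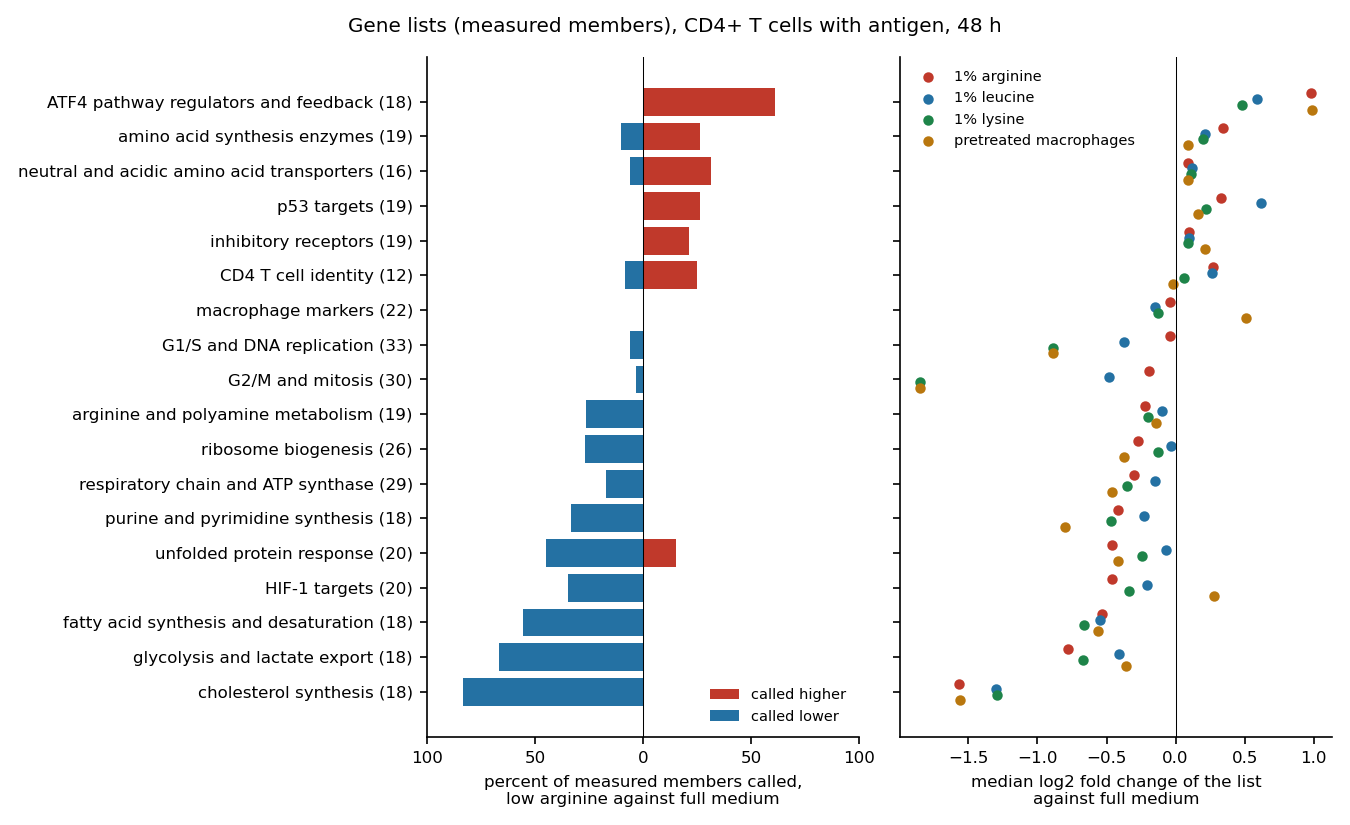
Left, percent of each list's measured members (number in brackets) called higher or lower in low arginine than in full medium. Right, the list's median log2 fold change against the same full-medium arrays in each altered condition. In low arginine cholesterol synthesis has the lowest median of the lists drawn (-1.57), and the HIF-1 targets differ in sign between low arginine (-0.46) and pretreated macrophages (0.28).

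Low arginine was also set directly against the other low media. The full-medium arrays enter these contrasts through the shared estimate of the spread, not through the differences. Against low leucine, 158 genes (0.712%) were called in the main fit, which is unpaired, 52 higher and 106 lower in low arginine. A fit of those 6 arrays alone gave 317 and 562, and 514 and 890 with the replicate numbers as pairs. Higher genes were 32.9% of the calls of the main fit, 28.9% with centred arrays and 48.0% after quantile normalization. Against low lysine, 715 genes (3.22%) were called, 587 higher (2.65%) and 128 lower (0.577%), or 123 and 16 with those 6 arrays alone, and 24 of the 30 mitotic genes were higher. Higher genes were 82.1% of those calls, 90.6% with centred arrays and 64.1% after quantile normalization. Of 10 B cell markers, 6 were called higher in low lysine than in full medium, beside 2.49% of all genes. Their mean was 5.83 to 6.82 over the low-lysine arrays and 5.77 to 6.05 over the low-arginine arrays. None was called between these 2 media, and the part of B cells in this contrast was not tested. Leaving out 1 array at a time left 20 to 33 higher and 28 to 50 lower against low leucine, each count falling by over 1.5 times whichever array was left out. Against low lysine the counts were 265 (without low-arginine replicate 3) to 834 (without low-lysine replicate 3) higher and 42 (without low-arginine replicate 2) to 187 (without low-lysine replicate 3) lower. Called the same way against both were 27 genes higher (0.122%) and 31 lower (0.14%), of which 15 and 20 were also called in that direction against full medium.

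Low arginine gave the highest Nupr1 of the 3 low media. It stood at 9.85 to 10.26, against 8.92 to 9.11 in low leucine (0.98 ± 0.18 higher, adjusted p = 0.00724) and 7.85 to 8.29 in low lysine (1.97 ± 0.18, adjusted p = 3.36e-06). The call against low leucine was lost without low-arginine replicate 1 (adjusted p = 0.0684). Jdp2 stood at 6.94 to 7.13, against 5.67 to 6.27 and 5.54 to 5.87, and was higher by 1.06 ± 0.17 and 1.30 ± 0.17 (adjusted p = 0.00311 and 0.000121). Those calls held without each array in turn. Itih5, a secreted matrix protein, stood at 8.46 to 8.84, against 7.15 to 7.40 and 6.25 to 6.78, and Add3, a membrane skeleton protein, at 8.85 to 9.23, against 8.13 to 8.22 and 8.05 to 8.45.

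Egln3 was lower in low arginine than in either other medium. It stood at 5.96 to 6.26, against 8.07 to 9.03 in low leucine (-2.63 ± 0.33, adjusted p = 0.000352) and 7.29 to 9.09 in low lysine (-2.06 ± 0.33, adjusted p = 0.00123). Il2, the T cell growth factor, stood at 9.54, 8.74 and 8.55 in full medium and at 7.83, 8.02 and 8.86 in low arginine, which overlap (-0.71 ± 0.29, adjusted p = 0.194). In low leucine it stood at 9.85 to 10.12 and in low lysine at 10.51 to 11.02, so that low arginine was lower by 1.73 ± 0.29 and 2.45 ± 0.29 (adjusted p = 0.00426 and 4.02e-05). On pretreated macrophages Il2 stood at 10.91 to 11.39. Trat1, an adaptor of the T cell receptor, rose against full medium (0.83 ± 0.13) yet was lower than in low leucine (-0.74 ± 0.13) and low lysine (-0.98 ± 0.13). The calls of Egln3, Il2 and Trat1 against both media held without each array in turn. Rgs16, which ends G protein signalling, stood at 7.90 to 8.32 in low arginine and 8.06 to 8.38 in full medium, against 10.00 to 10.56 in low leucine and 8.65 to 9.04 in low lysine (-2.10 ± 0.17 and -0.74 ± 0.17). The call against low lysine was lost without low-arginine replicate 2 or low-lysine replicate 1 (adjusted p up to 0.112). Its difference from full medium was -0.04 ± 0.17, and 0.07 after quantile normalization.

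**Figure D5:**
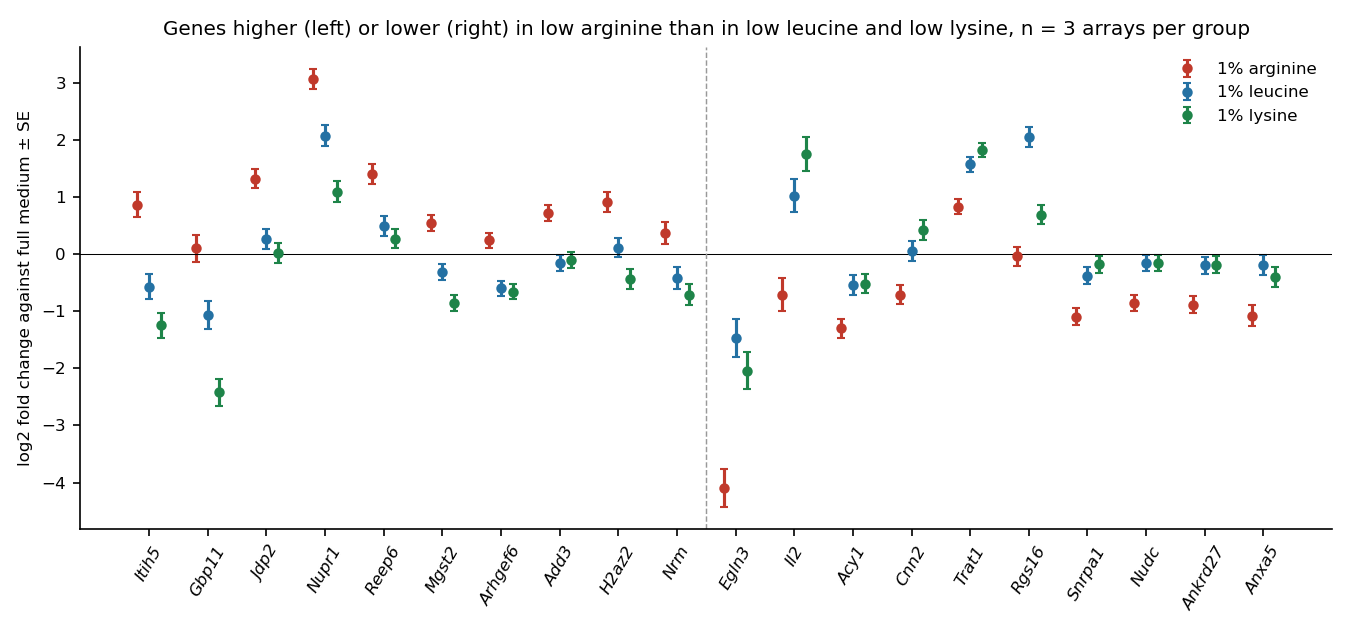
Log2 fold change ± SE against full medium for the 10 genes higher (left) and the 10 lower (right) in 1% arginine than in both 1% leucine and 1% lysine, 3 arrays per group. Egln3 is at -4.10 in 1% arginine, -1.47 in 1% leucine and -2.04 in 1% lysine, and Il2 is below full medium in 1% arginine and above it in both others.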

How the data were processed

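Gene expression was measured on Affymetrix MoGene 2.0 ST arrays. Per the submitters' processing notes, the authors made the deposited log2 values by RMA in Affymetrix Expression Console 1.1. The number of arrays limits the precision. Of 41345 probe sets, 23521 named 1 gene, 1814 several and 16010 none. A gene was read from its probe set with the highest mean, which gave 22180 genes. limma 3.58.1 (R 4.3.3) fitted group means over all 23 arrays of 48 h with an intensity trend, and p-values were two-sided and Benjamini-Hochberg adjusted over all genes. The method was tested on simulated data. The named genes are the 15 largest called rises and falls with groups that do not overlap, up to 5 called members of each list, the 10 genes per direction called against both low leucine and low lysine, and a fixed set. Other members of a list named by symbol, as well as Lyz2, Cd79a, Pdcd1, Ctla4 and Havcr2, were chosen after their values were seen. The members and the lists were chosen with earlier results of these data known. Same-numbered low-arginine and low-leucine arrays lie in the same runs and deviated together over the 5000 genes of the check (r = 0.35, 0.29 and 0.39). Their numbers were taken as pairs only in an alternative, the replicate block. The main fit is unpaired, and so are the differences, SEs and adjusted p-values given against low leucine. Alternatives were array centring, quantile normalization, a fit of the 6 arrays alone, no trend, a filter on low values (mean of at least 5), the mean of probe sets, array weights, blocks, and leaving out each array.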

Additional observations from a re-analysis of the deposited data

Results flagged for a closer look

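Each of the following 20 genes differed between low arginine and both low leucine and low lysine, each medium with antigen, in direct contrasts of 3 arrays against 3 (limma, adjusted p below 0.05 over all genes). Values are log2 differences from low leucine, then from low lysine.

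Among genes higher in low arginine, Itih5, a matrix protein, differed by 1.43 and 2.12, and Jdp2, an ATF partner, by 1.06 and 1.30. Gbp11, of the interferon-induced GTPases, differed by 1.17 and 2.52, and Nupr1 by 0.98 and 1.97. Reep6, which shapes membranes of the endoplasmic reticulum, differed by 0.91 and 1.12. Mgst2, a glutathione transferase, differed by 0.85 and 1.39, Arhgef6 by 0.84 and 0.90, and Add3 by 0.88 and 0.83. H2az2, a histone variant, differed by 0.80 and 1.35, and Nrm, of the nuclear envelope, by 0.80 and 1.09.

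Among genes lower in low arginine, Egln3 differed by -2.63 and -2.06, Rgs16 by -2.10 and -0.74, and Il2 by -1.73 and -2.45. Anxa5, annexin A5, differed by -0.88 and -0.67. Acy1, an aminoacylase, differed by -0.76 and -0.78, Cnn2, a calponin, by -0.76 and -1.13, and Trat1 by -0.74 and -0.98. Snrpa1, a spliceosome protein, differed by -0.72 and -0.92, Nudc, a dynein-associated protein, by -0.71 and -0.70, and Ankrd27 by -0.69 and -0.70.

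The calls against low leucine of H2az2, Nrm, Acy1, Cnn2 and Ankrd27 were lost without any 1 of the 6 arrays (adjusted p up to 0.153, 0.211, 0.194, 0.176 and 0.147). Those of Gbp11, Snrpa1, Nudc and Anxa5 were lost without any 1 of 5 arrays (adjusted p up to 0.152, 0.15, 0.0707 and 0.134), and that of Reep6 without any 1 of 3 (adjusted p up to 0.0824). The call of Nupr1 was lost without low-arginine replicate 1 (adjusted p = 0.0684). Against low lysine, the call of Anxa5 was lost without any 1 of 5 arrays (adjusted p up to 0.17) and with centred arrays. That of Acy1 was lost without low-arginine replicate 3 or low-lysine replicate 1 or 3 (adjusted p up to 0.0847), that of Rgs16 without low-arginine replicate 2 or low-lysine replicate 1 (adjusted p up to 0.112), and that of Ankrd27 without low-arginine replicate 1 (adjusted p = 0.0526). In a fit of the low-arginine and low-lysine arrays alone, the calls of Add3, Acy1, Rgs16, Snrpa1, Nudc, Ankrd27 and Anxa5 were lost, and with the run block also those of Reep6 and Arhgef6. The causes of these differences were not tested.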

How the results depend on the processing

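Against full medium, the fit of the 6 arrays alone called 785 genes higher and 1687 lower, array weights 843 and 1689, and the replicate block 904 and 1781. Leaving out 1 array gave 195 to 220 higher and 361 to 491 lower. Against low leucine, centring gave 33 higher, quantile normalization 83, the 6 arrays alone 317 and 562 lower, and array weights 236 and 521. The pairing as a replicate block gave 514 and 890, as did the run block, which groups those arrays identically. Leaving out 1 array gave 20 to 33 and 28 to 50. Against low lysine, centring gave 67 lower and quantile normalization 236 lower. The 6 arrays alone gave 123 and 16, array weights 901 and 242, the replicate block 196 and 32, and the run block 120 and 25. Leaving out 1 array gave 265 to 834 and 42 to 187. Replicate numbers of low arginine and full medium (same-number r = 0.38, 0.05 and 0.15) or low lysine (0, -0.14 and 0.09) were not taken as pairs. Differences from full medium that changed sign were those of Rgs16 (0.07 after quantile normalization, 0.09 without low-arginine replicate 2, 0.04 without full-medium replicate 2, and -0.13 to 0.09 over all left-out arrays), Gbp11 (-0.11 without full-medium replicate 2, and -0.11 to 0.2 over all left-out arrays), and, with the mean of probe sets, Rpl3 (0.18) and Hif1a (-0.02). The cause was not tested. Of 155 called genes that the rule for named genes chose, 95 stayed called without each array in turn, and 95 under every other alternative as well.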

Other observations

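Further gene groups held few calls against full medium. Of 20 transcription factors of helper T cells, 3 were called higher and 1, Eomes, lower. Foxp3, of regulatory T cells, stood at 8.10 to 8.21 in full medium and 8.62 to 9.04 in low arginine (0.62 ± 0.17), Ikzf3 differed by 0.75 ± 0.20 and Tox by 0.60 ± 0.15. Each of these 3 calls was lost without any 1 of at least 4 arrays (adjusted p up to 0.186), and without low-arginine replicate 1 or 2 or full-medium replicate 1 or 2 none of the 20 was called higher. Of 18 T cell receptor signalling genes, 4 were called higher and 1 lower, and Prkcq, the kinase PKC theta, rose by 0.61 ± 0.11. Ptpn22, a phosphatase that restrains the receptor, was higher by 0.69 ± 0.16, a call lost without full-medium replicate 1 (adjusted p = 0.0734).

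Of 21 genes of the type I interferon response, 2 were called lower, beside 3.17% of all genes. Stat2 fell by 0.81 ± 0.17 (8.08 to 8.32 against 7.15 to 7.53). Of 22 translation initiation genes, 1 was called higher and 1 lower (median -0.20), beside 1.51% and 3.17% of all genes. Eif3c rose by 0.48 ± 0.08, with 11.11 to 11.19 against 11.59 to 11.65. Eif2b5, of the exchange factor for eIF2, was lower (-0.51 ± 0.14), a call lost without any 1 of 5 arrays (adjusted p up to 0.185). Of 19 cystine and glutathione genes, 4 were called higher, all counted in other lists, and 2 lower. Txnrd1, thioredoxin reductase, was lower by 0.75 ± 0.16, a call lost without low-arginine replicate 2 (adjusted p = 0.0528). Lpcat3, a phospholipid acyltransferase, was the 1 gene called of 12 for cholesterol efflux and LXR and fell by 0.83 ± 0.17.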
